A study of Homo sapiens with 12 samples.

Results

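The genes that encode the subunits of human RNA polymerases I, II and III were followed in HK-2 cells, an established line derived from kidney proximal tubule, together with a Pol II-binding protein, the mitochondrial RNA polymerase and 4 factors that assemble polymerases. They were chosen by name, and all 33 were found among the 35238 genes of the deposited table. The cells had been transfected with 10 nM of a scrambled short interfering RNA duplex (SCR) or of one against POLR2A (siB). At the same time they were exposed for 24 hours to aristolochic acid I (AAI, 25 µM), a nephrotoxin from plants that damages DNA, or to its solvent, DMSO. The 4 groups were SCR DMSO, SCR AAI, siB DMSO and siB AAI, with 3 replicates of polyadenylated RNA each. All groups therefore carried a transfected duplex, and both siB groups carried the same duplex against the same transcript. The labels did not say whether replicates were separate cultures, so the p-values below measure only the spread between these libraries. The question addressed here was whether other subunits changed when POLR2A was lowered, with or without AAI.

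RNA polymerase I makes ribosomal RNA, RNA polymerase II makes messenger RNA and many small RNAs, and RNA polymerase III makes transfer RNA and 5S ribosomal RNA. Each enzyme has its own largest and second-largest subunits, which form the catalytic cleft. Several small subunits (POLR2E, POLR2F, POLR2H, POLR2K and POLR2L) are built into all of them, and POLR1C and POLR1D are shared by RNA polymerases I and III. RNA polymerase II is assembled in the cytoplasm with the help of RPAP1, RPAP2, RPAP3 and GPN1 and then imported into the nucleus. POLR2A encodes RPB1, which carries the catalytic site and the repeated tail that is phosphorylated during transcription. RPB1 is also the subunit that is ubiquitinated and degraded when polymerase stalls at damaged DNA.

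Levels are given in CPM, reads of a gene scaled to the total reads of its library, and a level per kilobase (kb) is CPM divided by the length of the Ensembl canonical transcript. Depth was 15844015 to 42805294 reads a library, and the fewest reads for any of the 33 genes was 41, for POLR3G. One library, SCR DMSO replicate 2, stood apart. It was the deepest, and it held the lowest value of all 12 libraries for 8 of the 33 genes and the highest for 4. SCR AAI replicate 3 held as many extremes, with 1 lowest and 11 highest. Between SCR DMSO replicate 2 and the other SCR DMSO replicates, chi-square per degree of freedom over genes was 358 and 338, the highest within any group. Against the mean of the other SCR DMSO replicates its log2(CPM + 1) differed by -2.50 for RPAP3, -1.91 for RPAP2, -1.36 for POLR2B and -1.21 for POLR3F. For POLRMT it was higher by 1.15, and for POLR2I by 1.06. A span was matched by gene name for 92.0% of the 15325 genes tested. Among those, the median difference of this library was -0.56 for the 7293 genes that span more than 30 kb and 0.09 for the 6802 that span less. For the 15 of the 33 genes that span more than 30 kb it was 0.03, and 8 of them were higher. For the 18 that span less it was 0.33. Counts that use SCR DMSO are therefore given with and without this library. Of the markers checked, all 6 for epithelium had a mean of at least 1 CPM, but only 3 of 12 for proximal tubule did (SLC34A1, SLC5A2 and GGT1). So did 2 of 3 for leukocyte (PTPRC and CD68), 2 of 3 for fibroblast (PDGFRB and COL1A1) and 1 of 4 for endothelium (PECAM1). Those for podocyte, loop of Henle and collecting duct were below 1 CPM. Megalin (LRP2), cubilin (CUBN), the anion transporters SLC22A6 and SLC22A8, and HNF4A were below 1 CPM. The 6 epithelial markers summed to between 1350 and 2294 CPM, lowest in siB AAI, and in bulk RNA fewer cells of a type and less RNA per cell cannot be told apart.

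In untreated SCR cells, level per kb ran from 90.2 for POLR2E, a shared subunit, to 0.492 for POLR3G. POLR2A was the sixth highest at 45.0 CPM per kb, between POLR2G (45.2) and POLR2K (40.8). The RNA polymerase II subunits lay between 90.2 and 12.7 CPM per kb (POLR2D), and subunits found only in RNA polymerase III lay between 24.8 (CRCP) and 0.492. The largest subunits of RNA polymerases I and III, POLR1A and POLR3A, were at 9.84 and 11.5 CPM per kb. POLR2A and POLR2G differed by less than the spread of their replicates. Whether reads were counted by strand was not given in the sources used here. Some genes share exons with a gene on the other strand, among them POLR2C with DOK4, POLR3G with MBLAC2, POLR2L with CD151, POLR3F with DZANK1 and POLR2B with IGFBP7. POLR2M shares exons with its read-through partner GCOM1 on the same strand, and POLR2J has near copies, POLR2J2 and POLR2J3, so that their reads may be split.

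Promoter sequences were looked at because they are what the genes could share beyond their function. RefSeq (GRCh38.p14) promoters were held for 24 of the 33 genes, and the 250 bases before the transcription start are used here. Those of POLR2A (chr17:7484116-7484365, plus strand), POLR2C (chr16:57462429-57462678, plus strand), POLR2L (chr11:842530-842779, minus strand), POLR3F (chr20:18467140-18467389, plus strand) and RPAP2 (chr1:92298809-92299058, plus strand) are shown. POLR2A was the knockdown target, POLR2C rose in the knockdown averaged over treatments, POLR2L and POLR3F passed with AAI in both kinds of cells, and RPAP2 passed with knockdown in AAI and had the largest rise in siB cells. Capitals mark the GC box (GGGCGG), the ETS core (CCGGAA) and TATAA on either strand.
POLR2A: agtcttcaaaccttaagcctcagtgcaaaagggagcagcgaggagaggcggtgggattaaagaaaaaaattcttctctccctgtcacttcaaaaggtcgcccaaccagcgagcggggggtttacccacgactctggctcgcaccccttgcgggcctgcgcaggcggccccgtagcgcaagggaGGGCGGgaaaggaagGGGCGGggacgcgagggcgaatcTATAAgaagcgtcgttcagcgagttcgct
POLR2C: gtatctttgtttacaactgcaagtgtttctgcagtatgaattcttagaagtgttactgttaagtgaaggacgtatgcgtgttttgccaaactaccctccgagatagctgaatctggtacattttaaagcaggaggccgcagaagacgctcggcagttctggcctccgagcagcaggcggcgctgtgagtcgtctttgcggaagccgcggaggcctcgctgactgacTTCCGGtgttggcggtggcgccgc
POLR2L: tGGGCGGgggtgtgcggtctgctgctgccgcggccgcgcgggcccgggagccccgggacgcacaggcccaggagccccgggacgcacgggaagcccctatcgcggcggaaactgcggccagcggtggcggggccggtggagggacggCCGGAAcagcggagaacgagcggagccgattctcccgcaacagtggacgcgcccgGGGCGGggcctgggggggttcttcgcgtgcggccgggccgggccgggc
POLR3F: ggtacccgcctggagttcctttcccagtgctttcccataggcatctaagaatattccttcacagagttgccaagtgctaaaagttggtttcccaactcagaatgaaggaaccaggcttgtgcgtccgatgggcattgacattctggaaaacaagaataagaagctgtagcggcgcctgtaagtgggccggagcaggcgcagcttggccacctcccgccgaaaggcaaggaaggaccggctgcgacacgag
RPAP2: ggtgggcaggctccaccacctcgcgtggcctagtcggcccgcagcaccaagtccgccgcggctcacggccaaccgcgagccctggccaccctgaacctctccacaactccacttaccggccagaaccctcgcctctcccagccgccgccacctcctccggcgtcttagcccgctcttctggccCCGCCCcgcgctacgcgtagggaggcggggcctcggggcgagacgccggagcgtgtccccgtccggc
POLR2A held 2 GC boxes and 1 TATAA, POLR2C held 1 ETS core, and POLR2L held 2 GC boxes and 1 ETS core. RPAP2 held 1 GC box, and POLR3F held none of these letters. Over the 33 genes, a GC box stood in 18 of 24 genes (75%), against 46.2% of 27305 genes with a promoter in the table. The ETS core stood in 11 of 24 (45.8%), against 17.2%. TATAA stood in 4 of 24 (16.7%), against 22.5%, and CCAAT in 7 of 24 (29.2%), against 37.0%. CACCC stood in 11 of 24, CACGTG in 2 and TGACTCA in 1, against 58.3%, 7.73% and 5.19% of all genes. Median GC content was 61.6% over 31 promoters of these genes and 58% over all. A match is a description of letters, and these motifs can overlap GC-rich sequence of any kind. The 27305 genes were not limited to genes expressed in these cells, so the shares are not matched for expression.

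The knockdown target was measured first. POLR2A (chromosome 17, 7484366 to 7514616, plus strand, hg38) was at 258, 288 and 306 CPM in the SCR DMSO replicates and at 138, 143 and 139 CPM in siB DMSO. With AAI it was at 673, 719 and 729 CPM in SCR cells and at 266, 220 and 210 CPM in siB cells. The siB libraries lay below every SCR library of the same treatment, and the AAI libraries lay above every DMSO library with the same duplex. Knockdown left 0.492 of the SCR mean in DMSO and 0.328 in AAI. The siB AAI libraries (210 to 266 CPM) overlapped the SCR DMSO libraries (258 to 306 CPM), a pair of groups that differ in duplex and treatment and were not tested against each other.

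**Figure D1:**
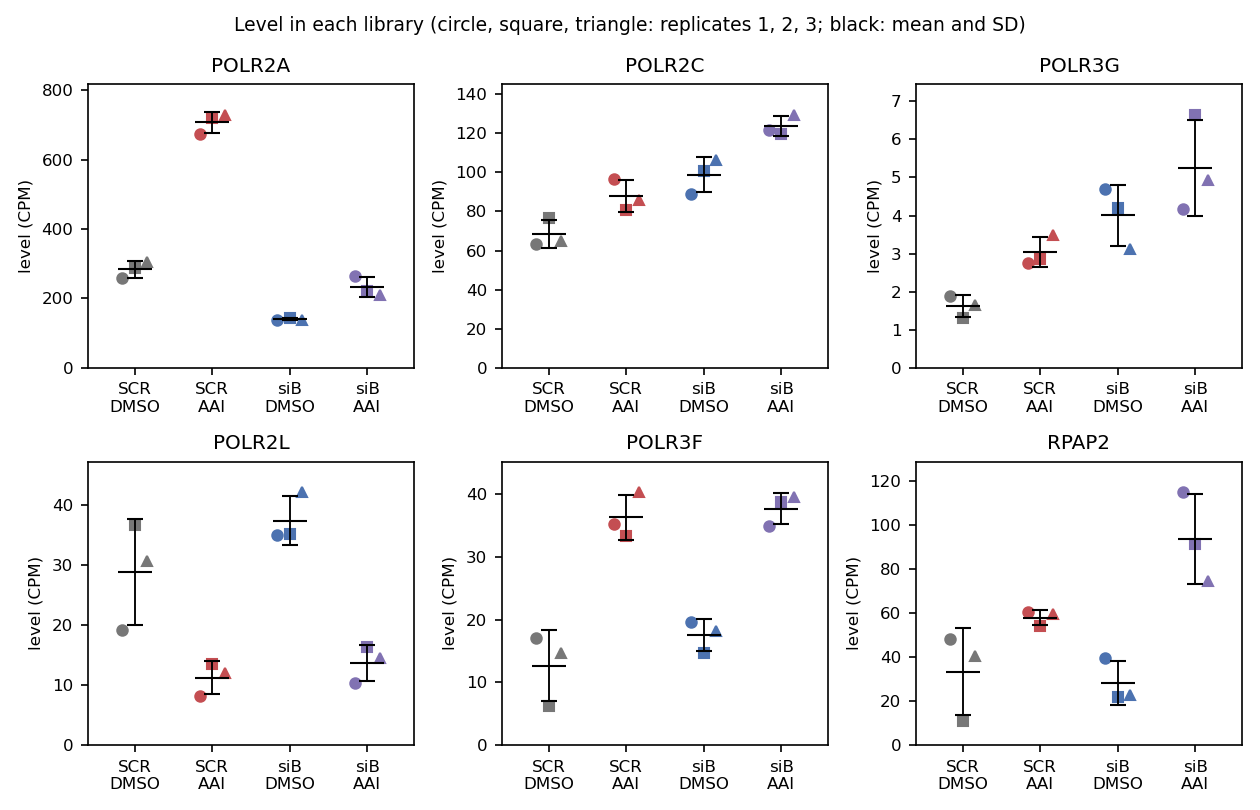
Level in CPM (vertical axes, from 0) of 6 genes in each of the 12 libraries by group (horizontal axes), with the group mean and SD (n = 3) in black. POLR2A follows the duplex and AAI together, POLR2C and POLR3G are higher in both siB groups, POLR2L and POLR3F follow AAI, and RPAP2 is highest in siB AAI, at 74.5 to 115 CPM.

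POLR2A was then set against its partners within each library. The measure was log2 of POLR2A per kb minus the mean log2 per kb of the 11 other RNA polymerase II subunits, shared ones included, and it does not depend on how libraries are scaled. It was 0.28, 0.05 and 0.41 in SCR DMSO (0.24 ± 0.18, SD, n = 3) and 1.46, 1.62 and 1.62 in SCR AAI (1.57 ± 0.09). The siB DMSO libraries were at -0.84, -0.87 and -0.99 (-0.90 ± 0.08), and those of siB AAI at 0.20, -0.17 and -0.25 (-0.07 ± 0.24). As ratios these means were 1.18, 2.97, 0.536 and 0.950. Every group stood apart from every other except siB AAI and SCR DMSO, whose values overlapped. No test was run on this ratio. The level of the ratio depends on the transcript lengths used, while the differences between groups do not.

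**Figure D2:**
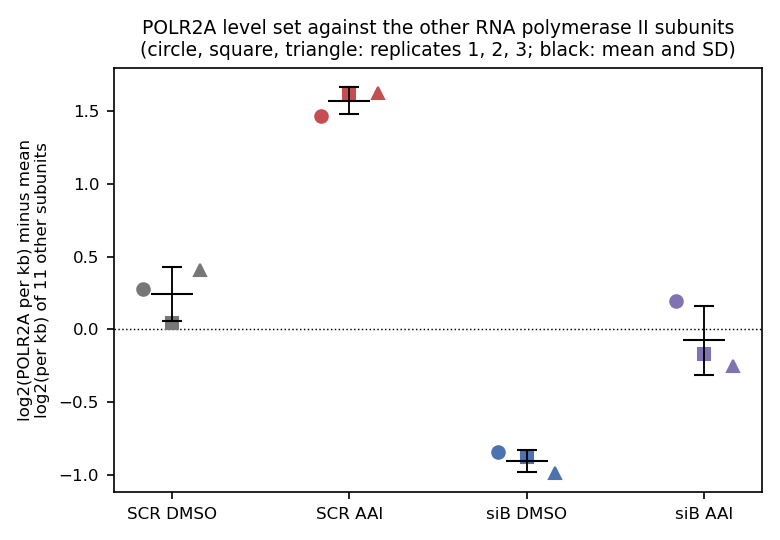
Log2 of POLR2A per kb minus the mean log2 per kb of the 11 other RNA polymerase II subunits (vertical axis) in each library, with the group mean and SD (n = 3) in black. SCR AAI lies highest (mean 1.57) and siB DMSO lowest (-0.90), while siB AAI (-0.07) and SCR DMSO (0.24) overlap around 0.

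With knockdown, few genes other than the target passed the test when replicates were not paired. In AAI-treated cells 1 of the 33 genes rose, RPAP2, and 1 fell, POLR2A (limma, adjusted p under 0.05), against a background of 5.49% of 14946 genes higher and 3.79% lower. At 2-fold or more, only POLR2A passed, where the background was 3.04% higher and 0.629% lower. Groups did not overlap for 4 genes upward (15.1% of all genes did so) and for 8 downward (15.8%). In DMSO-treated cells 0 of the 33 genes and 0% of the 13606 genes tested passed with limma, and voom and the fit without SCR DMSO replicate 2 also gave 0. The target POLR2A itself did not pass with limma in DMSO (adjusted p 0.505), although its groups did not overlap. A count of 0 in DMSO therefore does not show that other genes were unchanged. At an unadjusted p under 0.05, 3 of the 33 genes differed there, POLR2A, POLR3G and POLR2C, against 644 of all genes (4.73%), and 8 did without SCR DMSO replicate 2, against 20.2% of all genes. Groups did not overlap for 2 genes upward (8.28% of all genes) and for 4 downward (3.64%). Without that library it was 9 upward (22.1%) and 5 downward (15.9%). The median log2 change of the 33 genes was -0.15 in AAI and 0.05 in DMSO, beside 0.00 and 0.06 for all genes tested. Leaving out SCR AAI replicate 1 raised the count in AAI to 6 (POLR2C and RPAP2 higher, POLR2A, POLR3B, CRCP and POLR1A lower). The share of all genes that passed rose there as well, from 9.28% to 14.1%. Leaving out SCR AAI replicate 2 or 3, or siB AAI replicate 1 or 2, left POLR2A alone. All genes then passed at 5.59%, 1.43%, 5.1% and 4.72%, in that order.

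In AAI-treated cells, libraries of the same replicate number deviated together (correlations of 0.614, 0.318 and 0.292 between SCR AAI and siB AAI), and the test was repeated with the replicate number as a block. Then 7 of the 33 genes passed, with POLR2B (0.49, adjusted p 0.00419), POLR2C (0.49, adjusted p 0.00521), POLR3G (0.62, adjusted p 0.00957) and RPAP2 (0.66, adjusted p 1.1e-04) higher, and POLR2A, POLR3B (-0.79, adjusted p 2.2e-04) and CRCP (-0.53, adjusted p 0.00277) lower. The background rose as well, from 9.28% to 28.9% of all genes (15.2% higher and 13.8% lower). In this limma fit the median degrees of freedom were 29892, so that nearly all of the spread was taken from other genes.

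**Figure D3:**
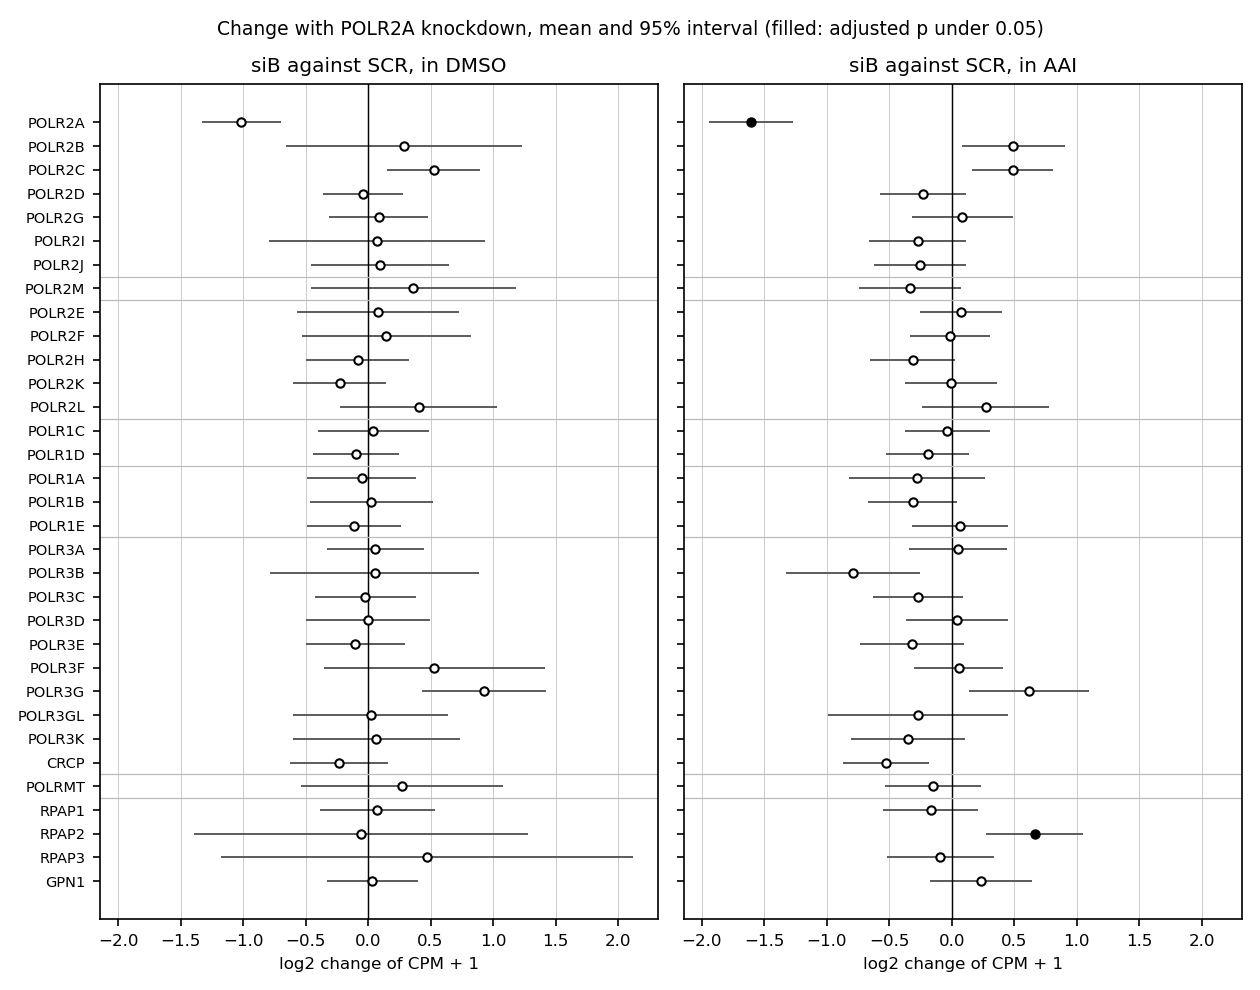
Log2 change of CPM + 1 between siB and SCR (horizontal axes) for the 33 genes, ordered by role, in DMSO (left) and in AAI (right), with 95% intervals from limma and filled points at an adjusted p under 0.05. POLR2A lies far to the left in both panels (-1.01 and -1.61), while most other genes lie near 0.

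The 2 knockdown comparisons share no library, and so the knockdown was also averaged over DMSO and AAI in a fit of all 4 groups, a test chosen after seeing the data. In that fit POLR3G (0.77, SE 0.14, adjusted p 0.0138) and POLR2C (0.51, SE 0.10, adjusted p 0.0175) rose, and POLR2A fell (-1.31, SE 0.09, adjusted p 1.2e-04). The background was 2.89% of 15325 genes higher and 0.914% lower. Groups did not overlap in either treatment for POLR2C and POLR3G, both higher, and for POLR2A and CRCP, both lower, while 1.76% of all genes did so upward and 1.18% downward. Without SCR DMSO replicate 2 the same 3 genes passed, against 6.5% of all genes, with changes of 0.73 for POLR3G and 0.55 for POLR2C. The same 4 did not overlap (2.56% and 3.19% of all genes).

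POLR2C encodes RPB3, which pairs with RPB11 (POLR2J) to form the platform on which RNA polymerase II is built. Its levels were 63.5, 76.9 and 64.8 CPM in SCR DMSO and 88.9, 101 and 107 CPM in siB DMSO. With AAI they were 96.7, 81.0 and 86.1 CPM in SCR cells and 122, 120 and 129 CPM in siB cells. All 6 siB libraries exceeded the SCR libraries of their treatment. The change was 0.52 (SE 0.16, adjusted p 1.0) in DMSO and 0.49 (SE 0.15, adjusted p 0.0596, and 0.00521 with the block) in AAI. The averaged change missed the threshold without siB DMSO replicate 2 or 3 and with median-ratio scaling (adjusted p 0.00657 to 0.0822 over 20 alternatives, changes 0.47 to 0.55). Its partner POLR2J had a change of -0.08 (SE 0.14, adjusted p 0.864) in the same fit. DOK4, whose exons overlap POLR2C on the other strand, had a change of -0.17 (adjusted p 0.542).

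POLR3G and POLR3GL encode alternative forms of the same RNA polymerase III subunit, RPC7, and an enzyme carries one or the other. POLR3G was at 1.89, 1.31 and 1.65 CPM in SCR DMSO and at 4.70, 4.19 and 3.12 CPM in siB DMSO. In AAI it was at 2.76, 2.85 and 3.48 CPM in SCR cells and at 4.17, 6.65 and 4.93 CPM in siB cells. The groups did not overlap in either treatment, and the means were 2.47 times and 1.73 times the SCR means. Its adjusted p was 0.935 in DMSO, 0.101 in AAI (changes of 0.93, SE 0.21, and 0.62, SE 0.22) and 0.00957 in AAI with the block, and it was 0.0124 to 0.0487 over the 19 alternatives of the averaged fit. Because POLR3G was so low, the pseudocount of 1 CPM shrinks its changes, and the averaged change reached 1.06 with a smaller one. POLR3GL stood at 14.6, 13.5 and 8.20 CPM in SCR DMSO and at 10.5, 13.1 and 12.3 CPM in siB DMSO, which overlapped. Its averaged change was -0.13 (SE 0.25, adjusted p 0.881). The log2 ratio of POLR3G to POLR3GL, not corrected for length, was -2.87 ± 0.53 (SD, n = 3) in SCR DMSO and -1.60 ± 0.41 in siB DMSO. With AAI it was -1.32 ± 0.72 in SCR cells and -0.23 ± 1.06 in siB cells, whose libraries overlapped. MBLAC2, which overlaps POLR3G on the other strand, had a change of 0.29 (adjusted p 0.595).

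RPAP2 is the phosphatase that acts on the RPB1 tail and helps bring RNA polymerase II into the nucleus. In AAI it was at 60.4, 54.0 and 59.4 CPM in SCR cells and at 115, 91.4 and 74.5 CPM in siB cells, with no overlap. The change was 0.66 (SE 0.18, adjusted p 0.0373, range 1.1e-04 to 0.437 over 16 alternatives), and it passed in 8 of them. It missed the threshold without SCR AAI replicate 2 or 3 and without siB AAI replicate 1 or 2. In DMSO its libraries overlapped, at 48.4, 11.1 and 40.5 CPM in SCR cells and 39.7, 21.7 and 22.9 CPM in siB cells.

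CRCP, POLR3B and POLR2B passed in AAI with the replicate block but not in the first, unpaired test, whose values follow. Over 16 alternatives, the block included, CRCP passed in 4, POLR3B in 3 and POLR2B in 1. CRCP, the RPC9 stalk subunit of RNA polymerase III, was at 81.7, 92.1 and 104 CPM in SCR AAI and at 59.6, 63.5 and 68.4 CPM in siB AAI. Its libraries did not overlap, and its change was -0.53 (SE 0.16, adjusted p 0.0567). POLR3B, the second-largest subunit of RNA polymerase III, went from 7.18, 7.93 and 12.3 CPM to 3.53, 6.0 and 4.93 CPM (-0.79, SE 0.25, adjusted p 0.0652), also with no overlap. POLR2B, the partner of RPB1 in the catalytic cleft, was at 153, 101 and 167 CPM in SCR AAI and at 203, 179 and 201 CPM in siB AAI. Its groups did not overlap either, and its change was 0.49 (SE 0.19, adjusted p 0.127). IGFBP7, which overlaps POLR2B on the other strand, had a change of 0.32 (adjusted p 0.267).

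Over the 11 RNA polymerase II subunits other than POLR2A, the averaged change ran from -0.20 (POLR2H) to 0.51 (POLR2C), with a median of 0.07. The 95% intervals of 10 of the 11 included 0, and the upper ends ran from 0.04 to 0.90. POLR2A fell by 1.31 in the same fit. In AAI the upper ends reached 0.91 and in DMSO 1.23, the latter for POLR2B, whose SCR DMSO libraries spread from 58.7 to 171 CPM. The stalk subunits POLR2D and POLR2G had changes of -0.13 (SE 0.09, adjusted p 0.535) and 0.08 (SE 0.12, adjusted p 0.823). POLR2E, the most abundant shared subunit per kb, had a change of 0.08 (SE 0.15, adjusted p 0.886). The 3 RNA polymerase I genes POLR1A, POLR1B and POLR1E had averaged changes between -0.17 and -0.02, and none of the 3 passed. POLRMT, the single-subunit enzyme of mitochondria, had a change of 0.06 (SE 0.20, adjusted p 0.939). CPM is a share of the reads of a library, so these changes do not give the amount of a transcript per cell.

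AAI itself was compared with DMSO within each duplex, in 2 comparisons that share no library with each other but share libraries with the knockdown comparisons. In SCR cells 2 of the 33 genes rose, POLR2A and POLR3F, and 1 fell, POLR2L, all by at least 2-fold. The background was 8.98% of 14228 genes higher and 3.36% lower (7.73% and 2.73% at 2-fold). Groups did not overlap for 13 genes upward (22.2% of all genes did so) and for 1 downward (11.5%). Without SCR DMSO replicate 2 the count was 5 higher and 1 lower, with POLR2F, POLR3K and POLRMT added, against 13.5% of all genes higher and 8.7% lower. Groups then did not overlap for 18 genes upward (29.1%) and for 2 downward (20.6%). POLR3F then rose by 1.15 (adjusted p 0.00487) and POLR2L fell by 1.08 (adjusted p 0.0233). Without SCR DMSO replicate 3, or without any 1 of the SCR AAI replicates, only POLR2A passed, against 6.23% to 7.01% of all genes. Same-numbered libraries deviated together here too (correlations of 0.422, 0.473 and 0.338), and with the replicate block POLR2M joined the 3 genes (0.90, adjusted p 0.0300), while the background went from 12.3% to 21.1%.

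In siB cells, where the spread between replicates was smaller, 11 of the 33 genes rose and 5 fell, against 30.4% of 14928 genes higher and 21.8% lower. In this fit the 33 genes thus passed about as often as all genes did, 16 of 33 beside 52.2%. At 2-fold or more, 2 rose (POLR3F and RPAP2) and 2 fell (POLR2L and POLR3B), against 13.9% and 5.79%. Groups did not overlap for 16 genes upward (34.2% of all genes) and for 7 downward (26.6%). Without siB DMSO replicate 2 the counts were 4 higher and 3 lower, beside 41.5% of all genes in either direction. Without siB DMSO replicate 3 they were 6 and 3 (40.4%). Without siB AAI replicate 2 they were 6 and 4 (46.4%), and without siB AAI replicate 3 they were 5 and 4 (44.3%). In each of these fits the 33 genes passed less often than all genes did. POLR2A, POLR2K, POLR3F, RPAP2, POLR2L and POLR3B passed in all 16 alternatives. Median-ratio scaling lowered the median change of all genes by 0.11 (-0.11) in siB cells and by 0.19 (-0.19) in SCR cells. It left 5 higher and 7 lower in siB cells (53.8% of all genes), and 2 higher and 1 lower in SCR cells (13.2%). None of the genes that passed changed sign.

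**Figure D4:**
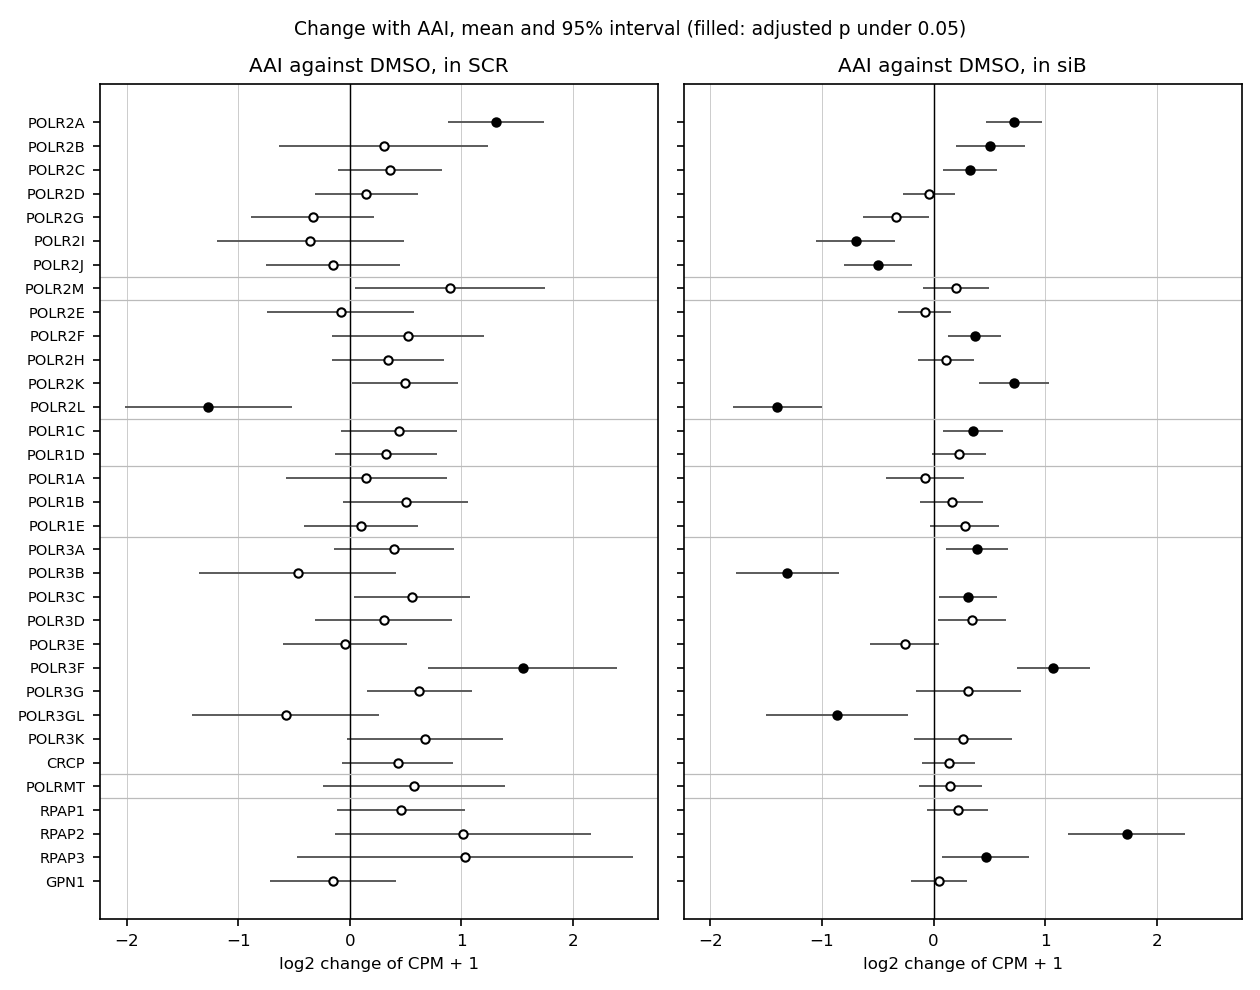
Log2 change of CPM + 1 between AAI and DMSO (horizontal axes) for the 33 genes, ordered by role, in SCR cells (left) and in siB cells (right), with 95% intervals from limma and filled points at an adjusted p under 0.05. POLR2A and POLR3F lie to the right and POLR2L to the left in both panels, and the intervals are narrower in siB cells.

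Among subunits found only in RNA polymerase II, 1 of 7 rose in SCR cells, POLR2A (1.32, SE 0.19, adjusted p 0.00321), beside 8.98% of all genes. In siB cells 30.4% of all genes rose and 21.8% fell. Of the 7 subunits 3 rose in siB cells, POLR2A (0.72, SE 0.11, adjusted p 6.0e-04), POLR2B (0.51, SE 0.14, adjusted p 0.0111) and POLR2C (0.32, SE 0.11, adjusted p 0.0294). There POLR2I, the RPB9 subunit of the jaw, and POLR2J, the RPB11 partner of POLR2C, fell. POLR2I went from 26.3, 34.4 and 32.8 to 16.3, 21.1 and 18.9 CPM (-0.70, SE 0.16, adjusted p 0.00463), with no overlap. POLR2J went from 48.6, 58.3 and 61.2 to 34.9, 41.3 and 41.9 CPM (-0.50, SE 0.13, adjusted p 0.0116), again with no overlap. POLR2C lost its call in 8 of 16 alternatives (adjusted p up to 0.191, median-ratio scaling included), and POLR2B and POLR2J lost theirs in 4. TBCB, which overlaps POLR2I on the other strand, also fell there (-0.65, adjusted p 0.00236). In SCR cells both groups overlapped for POLR2I and POLR2J. POLR2M, which encodes the Pol II-binding protein GDOWN1, was at 34.9, 13.2 and 22.3 CPM in SCR DMSO and 49.8, 31.9 and 44.9 CPM in SCR AAI, which overlapped (0.90, SE 0.37, adjusted p 0.165, and 0.0300 with the block).

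Of the 5 subunits shared by RNA polymerases I, II and III, 0 rose and 1 fell in SCR cells, and 2 rose and 1 fell in siB cells. The shares of all genes were 8.98% higher and 3.36% lower in SCR cells, and 30.4% and 21.8% in siB cells. POLR2L encodes RPB10, a small zinc-binding subunit of all of these enzymes. Its levels were 19.2, 36.7 and 30.7 CPM in SCR DMSO and 8.23, 13.5 and 12 CPM in SCR AAI. In siB cells they were 35.0, 35.2 and 42.2 CPM with DMSO and 10.4, 16.3 and 14.5 CPM with AAI. The AAI libraries lay below all DMSO libraries of the same duplex. POLR2L fell by 1.27 on the log2 scale in SCR cells (-1.27, SE 0.32, adjusted p 0.0414, range 0.00401 to 0.153 over 16 alternatives, of which 9 passed). In siB cells it fell by 1.40 (-1.40, SE 0.18, adjusted p 2.0e-04). CD151, on the other strand, went from 234 to 123 CPM in SCR cells (-0.89, adjusted p 0.0722) and had a change of -0.31 in siB cells (adjusted p 0.0564). POLR2K, which encodes RPB12, was at 41.2, 37.1 and 37.7 CPM in SCR DMSO and 60.7, 53.3 and 51.2 CPM in SCR AAI, with no overlap. Its change was 0.50 (SE 0.20, adjusted p 0.166) there. In siB cells POLR2K went from 33.1, 30.1 and 35.5 to 46.3, 61.7 and 57.3 CPM (0.72, SE 0.14, adjusted p 0.00217), a rise without overlap. POLR2F, the RPB6 gene, rose in siB cells (0.37, SE 0.11, adjusted p 0.0160, lost in 4 of 16 alternatives), and POLR2E and POLR2H passed in neither comparison, nor did the stalk subunits POLR2D and POLR2G. POLR1C, shared by RNA polymerases I and III, rose in siB cells (0.36, SE 0.12, adjusted p 0.0313, lost in 6 of 16 alternatives), and POLR1D did not pass (0.23, SE 0.11, adjusted p 0.0997).

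Of 10 genes found only in RNA polymerase III, 1 rose in SCR cells, and 3 rose and 2 fell in siB cells. All genes tested rose at 8.98% and fell at 3.36% in SCR cells, and at 30.4% and 21.8% in siB cells. The counts of the 10 genes lay near those shares. POLR3F encodes RPC6, part of the trio that opens the promoter. It was at 17.1, 6.26 and 14.6 CPM in SCR DMSO and 35.3, 33.4 and 40.3 CPM in SCR AAI. The siB cells held 19.7, 14.7 and 18.1 CPM with DMSO and 34.9, 38.7 and 39.5 CPM with AAI. All AAI libraries lay above all DMSO libraries. The rise was 1.55 in SCR cells (SE 0.37, adjusted p 0.0307, range 3.3e-04 to 0.145 over 16 alternatives, of which 11 passed) and 1.07 in siB cells (SE 0.15, adjusted p 2.9e-04). DZANK1 on the other strand was at 4.84 and 4.92 CPM in SCR cells with DMSO and AAI (0.11, adjusted p 0.883) and rose by 0.61 in siB cells (adjusted p 0.0360).

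POLR3B fell in siB cells, from 15.8, 12.4 and 11.7 to 3.53, 6.0 and 4.93 CPM (-1.31, SE 0.21, adjusted p 6.4e-04), with no overlap. In SCR cells it went from 14.2, 7.36 and 19.3 to 7.18, 7.93 and 12.3 CPM, which overlapped (-0.47, SE 0.38, adjusted p 0.474). Its partner in the cleft, POLR3A, rose in siB cells (0.39, SE 0.12, adjusted p 0.0236), and so did POLR3C, a partner of POLR3F (0.31, SE 0.12, adjusted p 0.0468). The call of POLR3A was lost in 8 of 16 alternatives (adjusted p up to 0.126) and that of POLR3C in 9. POLR3GL fell in siB cells, from 10.5, 13.1 and 12.3 to 10.4, 3.83 and 5.47 CPM (-0.87, SE 0.28, adjusted p 0.0276), and siB AAI replicate 1 lay just below the DMSO libraries. Its call was lost in 7 of 16 alternatives, among them those without siB DMSO replicate 2 or 3 and without siB AAI replicate 2 or 3. POLR3D, POLR3E, POLR3G, POLR3K and CRCP passed in neither comparison. None of the 3 genes of RNA polymerase I (POLR1A, POLR1B and POLR1E) passed, with changes between 0.10 and 0.50 in SCR cells and between -0.08 and 0.28 in siB cells. POLRMT had changes of 0.58 (SE 0.36, adjusted p 0.343) and 0.15 (SE 0.12, adjusted p 0.332), and it passed in neither.

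Among the assembly factors, RPAP2 was at 48.4, 11.1 and 40.5 CPM in SCR DMSO and 60.4, 54.0 and 59.4 CPM in SCR AAI. These did not overlap, but with SCR DMSO replicate 2 so low the change was 1.01 with an SE of 0.50 (adjusted p 0.237). In siB cells RPAP2 went from 39.7, 21.7 and 22.9 to 115, 91.4 and 74.5 CPM, a mean 3.33 times as high (1.73, SE 0.23, adjusted p 2.8e-04). That was the largest rise of the 33 genes in siB cells. RPAP3, a co-chaperone in the assembly complex, rose in siB cells (0.47, SE 0.17, adjusted p 0.0451), but 10 of 16 alternatives took the call away. GPN1, which carries the enzyme into the nucleus, had changes of -0.15 and 0.05, and RPAP1 of 0.46 and 0.22, and neither passed.

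The difference between the AAI responses of siB and SCR cells was tested as an interaction over all 4 groups. None of the 33 genes passed with limma (0 of 33), against 1.61% of 15325 genes, and voom passed 0 of all genes. At an unadjusted p under 0.05 POLR2A alone did (-0.59, SE 0.19, adjusted p 0.157), against 13.3% of all genes, and without SCR DMSO replicate 2 it was 9 genes, against 25.1%. POLR3B (-0.84, SE 0.45, adjusted p 0.466) and RPAP2 (0.72, SE 0.61, adjusted p 0.719) had the widest differences. Without SCR DMSO replicate 2, RPAP2 passed (1.36, adjusted p 0.0310), against 6.59% of all genes.

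**Figure D5:**
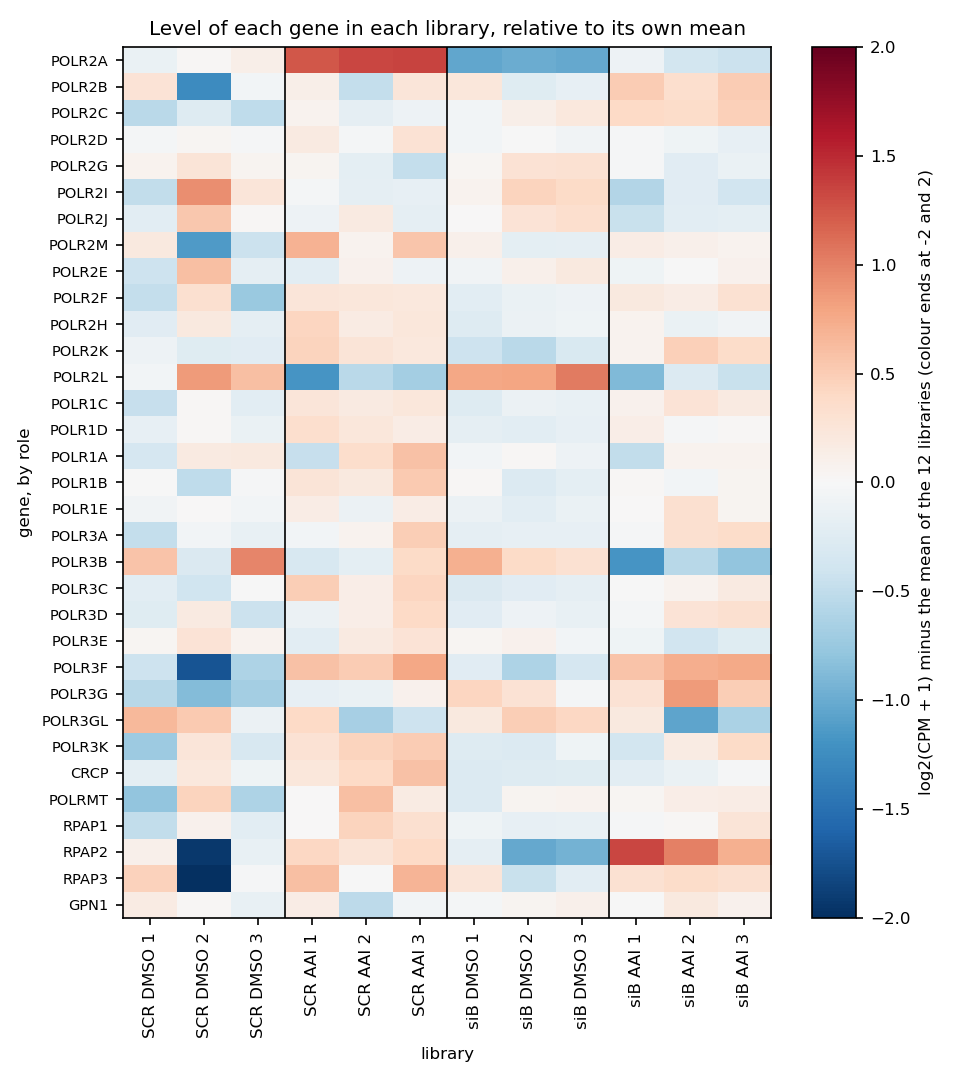
Log2(CPM + 1) of each gene (rows, ordered by role) in each of the 12 libraries (columns), minus the mean of the gene over the 12 libraries, on a colour scale that ends at -2 and 2. POLR2A is high in SCR AAI and low in siB DMSO, POLR3F and POLR2L show opposite patterns with AAI, and SCR DMSO replicate 2 stands apart with RPAP2, RPAP3, POLR3F and POLR2B at their lowest.

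Genes that work with the polymerases were counted from lists chosen for their roles. Their counts stand beside the shares of all genes given above, 8.98% higher and 3.36% lower with AAI in SCR cells, 30.4% and 21.8% with AAI in siB cells, and 5.49% and 3.79% with knockdown in AAI. With the replicate block these shares were 14.7% and 6.4% with AAI in SCR cells and 15.2% and 13.8% with knockdown in AAI. Other subunits in the table include TWISTNB, CD3EAP, ZNRD1, POLR2J2 and POLR2J3. In siB cells with AAI, TWISTNB, a stalk subunit of RNA polymerase I, rose from 17.8 ± 5.18 to 34.3 ± 2.62 CPM (SD, n = 3; 0.95, adjusted p 0.00261). None of these named genes passed in SCR cells or with knockdown, apart from POLR2J2, which was lower with AAI without SCR DMSO replicate 2 (-1.16, adjusted p 0.0302). Of 32 RNA polymerase II general factors, 0 passed with AAI in SCR cells, and in siB cells 12 rose (37.5%) and 5 fell (15.6%). In SCR cells the count was 2 higher without SCR DMSO replicate 2, and 7 higher and 2 lower with the replicate block. TAF1, the largest subunit of TFIID, rose with AAI in siB cells, from 40.1 ± 13.2 to 137 ± 32.1 CPM (1.77, adjusted p 1.9e-04). With knockdown in AAI, 0 of the 32 rose and 1 fell, CDK7, the kinase of TFIIH that phosphorylates the RPB1 tail (-0.70, adjusted p 0.0353), which is named because it was the only one. With the block it was 3 higher and 5 lower. In the averaged knockdown TAF4, another subunit of TFIID, was the only gene of all these lists that passed (-0.40, adjusted p 0.0403). Without SCR DMSO replicate 2, CDK7, PTRF, TAF1B, RNF7 and ERCC6 were added, which are named after their values were seen.

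Of 16 RNA polymerase III factors, 2 rose in SCR cells with AAI and 0 fell, and in siB cells 3 rose (18.8%) and 6 fell (37.5%). In SCR cells the count was 2 higher and 1 lower without SCR DMSO replicate 2 and 3 higher with the block. SNAPC4, a subunit of the complex for small nuclear RNA promoters, rose in both, from 50.8 ± 12.4 to 142 ± 12.5 CPM (1.49, adjusted p 0.00518) and from 52.0 ± 1.90 to 115 ± 10.1 CPM (1.13, adjusted p 4.0e-05). BDP1, part of TFIIIB, rose in siB cells (1.39, adjusted p 0.00905). With knockdown in AAI, SNAPC2 of the same complex as SNAPC4 fell from 30.3 ± 6.73 to 13.8 ± 2.54 CPM (-1.08, adjusted p 0.00938), the only one of the 16 to pass, and with the block 5 were lower. Of 8 RNA polymerase I factors, 0 passed in SCR cells (2 higher with the block or without SCR DMSO replicate 2) and 0 with knockdown in AAI (3 lower with the block). With AAI in siB cells 2 rose (25%) and 2 fell (25%), and RRN3, which recruits the enzyme to ribosomal DNA, rose from 42.0 ± 4.30 to 91.1 ± 8.13 CPM (1.10, adjusted p 9.0e-05).

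Of 16 genes for ubiquitination and turnover of RPB1, 2 rose with AAI in SCR cells and 0 fell, and 7 rose (43.8%) and 2 fell (12.5%) in siB cells. Without SCR DMSO replicate 2 the count in SCR cells was also 2 higher, and with the block 1 more was lower. TCEB3, the elongin A subunit of an RPB1 ubiquitin ligase, rose in siB cells from 79.0 ± 3.36 to 181 ± 33.7 CPM (1.17, adjusted p 1.1e-04). NEDD4, another ligase for RPB1, rose from 74.7 ± 25.8 to 162 ± 8.95 CPM (1.16, adjusted p 0.00112), and WWP2 fell from 70.7 ± 5.93 to 33.7 ± 6.0 CPM (-1.06, adjusted p 3.6e-04). With knockdown in AAI, 1 of the 16 rose, UVSSA, which acts at stalled polymerase (0.71, adjusted p 0.0490), also named after its value was seen, and 0 fell. With the block it was 3 higher and 1 lower. Of 17 polymerase assembly genes, 3 rose with AAI in SCR cells, among them GPN2 (1.15, adjusted p 0.0104) and PDRG1 (1.37, adjusted p 0.0127), and 0 fell, also with the block or without SCR DMSO replicate 2. In siB cells 5 of the 17 rose (29.4%) and 3 fell (17.6%). With knockdown in AAI, 0 of the 17 rose and PDRG1 fell, from 171 ± 18.0 to 107 ± 11.1 CPM (-0.68, adjusted p 0.0204), and with the block 2 were lower. Of 8 genes for mitochondrial transcription, 0 passed in SCR cells (1 higher with the block), 3 rose (37.5%) and 0 fell in siB cells, and 0 passed with knockdown in AAI with or without the block. In DMSO-treated cells none of these lists held a gene that passed with knockdown, as 0 of all genes passed there.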

How the data were processed

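Reads per gene came from bulk RNA sequencing of 12 libraries. Per the study's methods, the authors counted reads per gene with the BioJupies platform and a UCSC hg38 annotation. The aligner was not given in the sources used here. The authors deposited log10 of CPM plus 1 for 35238 genes, with no further scaling found, and 10 raised to each value, minus 1, was used as CPM. These values were whole multiples of 1 read (tolerance 0.05, 100% of values), so reads were recovered. Groups came from the titles, since a treatment field read DMSO for all samples.

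Pairs of groups were tested alone with limma 3.58.1 in R 4.3.3 (eBayes with trend) on log2(CPM + 1). The pseudocount of 1 understates changes of low genes. A gene was tested where 3 or more of the libraries fitted reached 1 CPM, and p-values were adjusted by Benjamini-Hochberg over all genes tested. The interaction used all 4 groups. A gene passed at an adjusted p under 0.05, and rose and fell are used in that sense, while a change is a difference of means whether or not it passed. All 33 genes were named, and other list genes where they passed at 2-fold or more or are remaining subunits, of which 1 is not reported here. The genes and lists were chosen with earlier results of these data known. The averaged knockdown and the fit of all 4 groups without SCR DMSO replicate 2 were added after seeing the data. The other settings tried were voom on the recovered reads, eBayes without trend, a replicate block, one fit over all 4 groups, median-ratio size factors, CPM computed without the transcript AC010970.2, a pseudocount of 0.1, a filter at mean CPM 5, no filter, and each library left out in turn. Replicate numbers were taken to pair the samples where all 3 correlations of deviations between same-numbered libraries were over 0.1, a hint from the data and not from the labels. That held for AAI in SCR cells (0.338 to 0.473) and for knockdown in AAI (0.292 to 0.614), but not for AAI in siB cells (0.026 to 0.21), knockdown in DMSO (-0.193 to 0.726) or all 4 groups. Fits were tested on simulated reads with the same spread in every library. Those tests held no library like SCR DMSO replicate 2 and did not cover the replicate block. Counting at 0 allows up to 3 reads, which is 0.0701 to 0.189 CPM and covers counting error only. Chi-square per degree of freedom was 4.23 between siB DMSO replicates 2 and 3, the closest pair. It was 26.2 to 358 between the other replicates of a group, so none was a copy. Positions are from GENCODE release 44.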

Additional observations from a re-analysis of the deposited data

How the results depend on the processing

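No result reversed in any alternative tried. Among the 33 genes, 3027 values for single genes kept their direction and their side of the threshold, 84 lost the call, 45 gained it and 166 that had no call changed sign. Shares of all genes tested that passed, in either direction unless stated, follow each count in brackets. The number of the 33 genes that passed with AAI in SCR cells was 3 (12.3%). It was 1 with no filter on low values (3.42%) and 7 with all 4 groups in the fit (26.7%). With all 4 groups but without SCR DMSO replicate 2 it was 15 (32.9%), and with a library left out 1 to 6 (6.23% to 22.2%). With AAI in siB cells it was 16 (52.2%), and it was 6 with all 4 groups in the fit (34.5%). It was 4 at 2-fold or more (13.9% higher and 5.79% lower) and 7 to 18 with a library left out (40.4% to 56.1%). With knockdown in AAI it was 2 (9.28%). It was 1 with no filter (0.534%), with no trend (9.76%) and with all 4 groups in the fit (7.31%). At 2-fold or more it was also 1 (3.04% higher and 0.629% lower). It was 4 for CPM without AC010970.2 (10.4%) and 4 with all 4 groups but without SCR DMSO replicate 2 (13.3%). With a library left out it was 1 to 6 (1.43% to 14.1%). With knockdown in DMSO it was 0 (0%). All 4 groups in the fit gave 1 (0.0392%), POLR2A at -1.01. Without SCR DMSO replicate 2 that fit also gave 1 (0.196%), POLR2A at -1.0. The interaction count was 0 to 1 with a library left out (0.529% to 6.59%). In the averaged knockdown 3 passed (3.8%), and 1 at 2-fold or more (0.202% higher and 0.0457% lower). The cause of these moves was not tested.

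The log2 ratio of POLR2A to the other subunits was 2.30, 3.63, 1.16 and 1.98 in SCR DMSO, SCR AAI, siB DMSO and siB AAI without length correction, and 1.34 in SCR AAI with the median of the other subunits.

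The replicate block, which is paired in 2 comparisons only, gave 7 genes with knockdown in AAI (4 higher, 3 lower), beside 28.9% of all genes. It gave 4 with AAI in SCR cells (21.1%), 17 with AAI in siB cells (57.6%) and 4 in the averaged knockdown (6.13%), where CRCP was added. In the interaction it gave 0 (2.54%), and with knockdown in DMSO 0 (0%). Over all 4 groups 13 of 18 same-numbered pairs of libraries correlated over 0.1 (range -0.273 to 0.726), and 9 of 12 libraries correlated best with their own number. With 41 reads for POLR3G in 1 library, counting limited its precision.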
